A study of Macaca mulatta with 2 samples.

Results

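The desaturases and elongases of polyunsaturated fatty acid synthesis, with related enzymes, were followed in RNA sequencing of macaque optic nerve, and their 10 symbols were all found among the 16684 genes of the deposited table. They were taken by name, with no threshold on a measured value, though earlier results of these data were known. By role they are 4 desaturases (*FADS1*, *FADS2*, *FADS3* and *SCD*), 4 elongases (*ELOVL2*, *ELOVL4*, *ELOVL5* and *ELOVL6*) and 2 acyl-CoA synthetases (*ACSL4* and *ACSL6*). The series holds 2 libraries, Rep1 and Rep2, of wild-type, untreated *Macaca mulatta* optic nerve, with no treated or diseased group. The methods of the study describe nerves taken after death from a male aged 12 years, but the series record speaks of several macaques, so whether the libraries share an animal is not settled and the spread between them may be partly technical. Values are TPM, the share of length-corrected reads that a gene takes in its library, scaled to a total of 1000000, so levels can be compared between genes.

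Desaturases place a double bond in a fatty acid chain and elongases lengthen the chain, each in the membrane of the endoplasmic reticulum. Acting in turn on the dietary precursors linoleic and alpha-linolenic acid, they make arachidonic acid, the substrate of the lipoxygenases and cyclooxygenases, and docosahexaenoic acid, the main polyunsaturated fatty acid of photoreceptor membranes. Acyl-CoA synthetases activate free fatty acids, which lets them be built into phospholipids. Myelin, which fills much of the optic nerve, is rich in long-chain lipids.

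The coding stretch around a histidine box, a conserved motif that binds metal in the desaturases, is shown for the 8 desaturases and elongases. It is the part that most marks the families, and it shows how far the related transcripts differ where reads could be confused. The sequences are RefSeq transcripts of Mmul_10, each 45 bases, written 5′ to 3′ on the coding strand with the 5 codons of the box in capitals.
FADS1: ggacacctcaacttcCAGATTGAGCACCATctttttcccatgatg
FADS2: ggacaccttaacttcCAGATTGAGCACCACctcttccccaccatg
FADS3: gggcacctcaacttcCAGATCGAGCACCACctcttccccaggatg
SCD: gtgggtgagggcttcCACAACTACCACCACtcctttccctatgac
ELOVL2: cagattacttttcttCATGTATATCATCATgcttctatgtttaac
ELOVL4: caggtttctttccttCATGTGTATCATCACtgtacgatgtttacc
ELOVL5: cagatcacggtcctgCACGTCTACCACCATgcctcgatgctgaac
ELOVL6: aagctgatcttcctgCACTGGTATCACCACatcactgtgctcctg

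The elongase stretches each lie within 1 coding exon, at chr4:159019182-159019226 on the plus strand for *ELOVL2*, chr4:93118339-93118383 on the plus strand for *ELOVL4*, chr4:116323241-116323285 on the plus strand for *ELOVL5* and chr5:108405395-108405439 on the minus strand for *ELOVL6*. The desaturase stretches cross an exon junction, and from first to last base they span chr14:12371276-12371431 (plus) for *FADS1*, chr14:12256347-12257741 (minus) for *FADS2*, chr14:12246133-12246311 (plus) for *FADS3* and chr9:100823284-100827294 (plus) for *SCD*. Within these 45 bases *FADS1* had 6 mismatches to *FADS2* and 6 to *FADS3*, and *FADS2* had 5 to *FADS3*. Over the aligned coding sequence the identity was 69.6% for *FADS1* and *FADS2*, 70.0% for *FADS1* and *FADS3*, and 72.6% for *FADS2* and *FADS3*. The elongases were 61.8% (*ELOVL2* and *ELOVL6*) to 68.6% (*ELOVL2* and *ELOVL5*) identical, and *ACSL4* and *ACSL6* 60.8%.

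No stretch of 50 bases was shared between any pair of the 10 genes, so a read of that length without errors could be told apart within the families. *SCD* was the exception toward other genes. Of its 5603 different 50-base words, 40.0% also occur in other annotated transcripts, nearly all of them in a transcribed pseudogene that lies inside the *SCD* locus on the same strand. *ACSL4* shared 3.83% of its words with a gene on the opposite strand that overlaps it, and *ACSL6* 0.348% of its words with transcripts of other loci. For the other members the share was at most 0.0449%. How the authors treated reads with several positions is not given in the sources used here, so the level of *SCD* may include or lack reads of that region.

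The fatty acid desaturase genes form a cluster on chromosome 14, with *FADS3* at 12230776 to 12248711, *FADS2* at 12250536 to 12295023 on the minus strand and *FADS1* at 12357910 to 12374780. Gaps of 1824 bases between *FADS3* and *FADS2* and of 62886 bases between *FADS2* and *FADS1* separate them. *SCD* lies on chromosome 9 (100812959 to 100831357). *ELOVL4* (93092050 to 93125238), *ELOVL5* (116252001 to 116337660) and *ELOVL2* (158969053 to 159029854) all lie on chromosome 4, and *ELOVL6* on chromosome 5 (108402791 to 108551067, minus strand). *ACSL4* is X-linked (106398629 to 106481421, minus strand), and *ACSL6* lies on chromosome 6 (129410928 to 129473358, minus strand). *ELOVL4*, *ACSL4* and *ACSL6* each overlap an annotated gene on the opposite strand. *ELOVL6* also overlaps an annotated gene, though it shares no 50-base word with another annotated transcript.

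The libraries differed strongly in depth and content, which touches every value below. Rep2 was the deeper library, since it took 17.2 of its reads to match the TPM of a single Rep1 read, and 38.5% of all genes were listed at 0 in Rep1 against 12.5% in Rep2. All 8 oligodendrocyte and all 8 astrocyte markers of the labelled tissue were above 0 in both libraries. Most genes passed that bar too, and of 15 photoreceptor markers only 1 was listed at 0 in Rep1. The oligodendrocyte and astrocyte markers summed to 46086 and 1213 TPM in Rep1 and to 212682 and 7612 TPM in Rep2. Most of the oligodendrocyte sum was *MBP*, at 43721 (Rep1) and 199595 TPM (Rep2). Rep1 also held 4163 TPM of 15 photoreceptor markers, which summed to 32.4 TPM in Rep2. In bulk RNA fewer cells of a type cannot be told apart from less RNA per cell.

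*FADS1*, the delta-5 desaturase that completes arachidonic acid, had the highest mean of the 10 genes in TPM as deposited, although with median-of-ratios scaling *ACSL4* averaged 181 and *FADS1* 120 TPM. *FADS1* stood at 41.7 (Rep1) and 269 TPM (Rep2), a mean of 155 ± 161 TPM (SD, n = 2) which put it at percentile 93.0 of 14693 detected genes, those above 0 in either library. *FADS3*, which acts on the sphingoid base of ceramides, reached 9.43 (Rep1) and 70.5 TPM (Rep2), a mean of 40.0 ± 43.2 TPM (SD, n = 2). *FADS2*, the delta-6 desaturase that carries out the first step on the dietary precursors, was the lowest of the cluster, with 3.71 (Rep1) and 30.7 TPM (Rep2) and a mean of 17.2 ± 19.1 TPM (SD, n = 2). All 3 were lower in Rep1, yet their proportions were alike in the libraries. *FADS1* took 76.0% of the summed TPM of the cluster in Rep1 and 72.6% in Rep2, *FADS3* took 17.2% and 19.1%, and *FADS2* took 6.77% and 8.30%. In Rep1 these proportions rested on at least 9, 2 and 3 reads for *FADS1*, *FADS3* and *FADS2*. These are lower bounds, the smallest whole numbers that fit the ratio of the libraries, and the true numbers may be far higher. *SCD*, at only 1.47 TPM in Rep1, had at least 8 reads there.

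*SCD*, the delta-9 desaturase that makes monounsaturated fatty acids such as oleic acid, was at 1.47 (Rep1) and 12.3 TPM (Rep2), a mean of 6.89 ± 7.67 TPM (SD, n = 2) at percentile 44.3. The related *SCD5* was above it in both libraries, with 6.44 (Rep1) and 25.2 TPM (Rep2), which is 4.37 and 2.05 times the level of *SCD*. *FADS2* exceeded *SCD* 2.52-fold in Rep1 and 2.49-fold in Rep2. These ratios depend on how reads from the stretches that *SCD* shares with other transcripts were counted.

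Among the elongases, *ELOVL5*, which lengthens polyunsaturated acids of intermediate length, was at 19.0 (Rep1) and 137 TPM (Rep2), a mean of 78.0 ± 83.4 TPM (SD, n = 2). *FADS1* stood 2.19 times above it in Rep1 and 1.96 times in Rep2. *ELOVL6*, which lengthens saturated and monounsaturated acids, went the other way, with 88.6 (Rep1) and 24.4 TPM (Rep2) and a mean of 56.5 ± 45.4 TPM (SD, n = 2). It was 4.66 times the level of *ELOVL5* in Rep1 and 0.178 times that level in Rep2.

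*ELOVL2*, which carries polyunsaturated acids to the length needed for docosahexaenoic acid, was listed at 0 in Rep1, with 3.42 TPM in Rep2. *ELOVL4*, the elongase of very-long-chain fatty acids that is known for its role in photoreceptors, was likewise listed at 0 in Rep1, with 1.19 TPM in Rep2. Neither 0 shows absence at this depth. Of the 200 genes closest to *ELOVL2* in Rep2 level, 43.0% were also listed at 0 in Rep1, and of those closest to *ELOVL4*, 62.0% were. *ELOVL4* was thus not detected in the library that held the photoreceptor transcripts, where *GNAT1*, the rod transducin, was at 2763 TPM. The part of those transcripts in the levels of the elongases was not tested.

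*ACSL4*, which prefers arachidonic acid, had the highest level of the 10 genes in Rep1 at 224 TPM and was at 34.3 TPM in Rep2, a mean of 129 ± 134 TPM (SD, n = 2) at percentile 91.5. *ACSL6*, an enzyme of brain and retina that is known to favor docosahexaenoic acid, was at 44.1 (Rep1) and 11.6 TPM (Rep2), a mean of 27.9 ± 23.0 TPM (SD, n = 2). Both were higher in Rep1, and *ACSL4* exceeded *ACSL6* 5.09-fold there and 2.96-fold in Rep2. These levels rested on at least 75 and 96 reads in Rep1 and 197 and 433 reads in Rep2. Reads of *ACSL4* in the stretch it shares with its antisense partner could not be told apart unless strand was used.

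**Figure D1:**
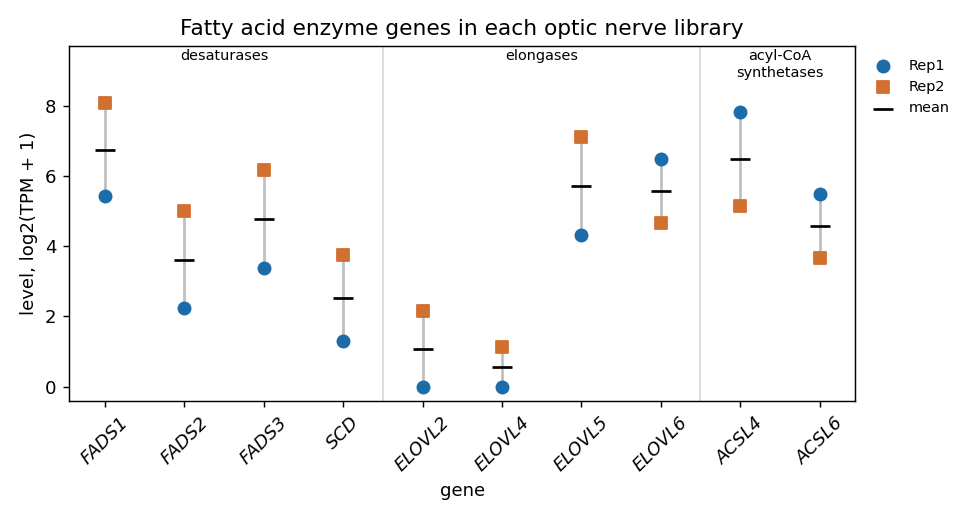
The level of each gene on the log2(TPM + 1) scale (y axis) is plotted by role (x axis), with a circle for Rep1, a square for Rep2 and a bar for their mean. The desaturases and *ELOVL5* are lower in Rep1, *ELOVL2* and *ELOVL4* are at 0 there, and *ELOVL6*, *ACSL4* and *ACSL6* are higher in Rep1.

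Ordered by mean log2(TPM + 1), the genes ran from *FADS1* through *ACSL4*, *ELOVL5*, *ELOVL6*, *FADS3*, *ACSL6*, *FADS2*, *SCD* and *ELOVL2* to *ELOVL4*. No neighbors in this order differed by more than 1 SD of the error used. As error served the scatter between Rep1 and Rep2, taken about 0, among the 200 genes of most similar level. This error treats the genes of a pair as independent and includes the general shift between libraries, which cancels within a library. It is therefore too wide for genes that move together, and a small gap does not show equal levels. *FADS2* exceeded *SCD* 2.52-fold in Rep1 and 2.49-fold in Rep2, at 0.579 SDs. Only that pair and *SCD* and *ELOVL2* kept their order in both libraries among neighbors. The 9 gaps ran from 0.0916 SDs (*ELOVL5* and *ELOVL6*) to 0.846 SDs (*SCD* and *ELOVL2*). Of all 45 pairs, 29 were more than 1 SD apart and 16 were not. *FADS1* stood above *FADS2*, *FADS3* and *ELOVL5* in both libraries, but above *ACSL4*, *ELOVL6* and *ACSL6* in Rep2 alone. In all, 32 pairs had the same order in Rep1 and Rep2, 12 had the opposite order and 1 was tied at 0 in Rep1.

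With 1 library on each side, the difference between Rep1 and Rep2 carries no test, and an exact sign test on 2 libraries cannot go below p = 0.5. Of the 10 genes, 7 were at least 2-fold higher in Rep2 on the log2(TPM + 1) scale, where 51.3% of the 14693 detected genes were. The other 3 were at least 2-fold higher in Rep1, where 14.8% of all genes were. The median difference (Rep1 minus Rep2) was -2.29 for the 10 genes and -1.07 for all genes. Scaling with the median of ratios takes away a general log2 shift of -1.19, and then 6 of the 10 remained at least 2-fold higher in Rep2, *ELOVL4* having come to -0.84, and 3 in Rep1. The corresponding counts over all genes were then 4972 and 3485, against 7533 and 2170 as deposited. Scaling Rep1 to the oligodendrocyte markers of Rep2, a choice made after seeing the data, left *ELOVL2* and *ELOVL4* as the 2 genes at least 2-fold higher in Rep2, brought *FADS1*, *FADS2*, *FADS3*, *ELOVL5* and *SCD* to between -0.65 and -0.31 and kept the 3 that were higher in Rep1. *ELOVL2* and *ELOVL4* are at 0 in Rep1, so multiplying Rep1 could not move them. Over all genes that scaling gave 3434 higher in Rep2 and 5345 in Rep1, of 14693. The 8 members above 0 in Rep1 kept their sign under both scalings.

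The difference was -2.66 for *FADS1*, -2.75 for *FADS2*, -2.78 for *FADS3*, -2.78 for *ELOVL5* and -2.43 for *SCD*. As plain ratios of TPM, Rep2 exceeded Rep1 6.45-fold (*FADS1*) to 8.36-fold (*SCD*) in these 5 genes, a range that held 6.63% of the 10168 genes above 0 in both libraries. It overlapped the range of the 8 oligodendrocyte markers, from 4.57-fold to 7.84-fold, but their median of 5.19-fold lay below it. Only *CNP* and *MAG* of that list lay within it. So did *GFAP* (6.58-fold) and *S100B* (7.11-fold) of the astrocyte markers and *COL1A1* (6.82-fold) and *COL1A2* (7.62-fold) of the fibroblast markers, the rest of these lists lying outside. *FADS1*, *FADS2*, *FADS3*, *ELOVL5* and *SCD* were grouped after their values had been seen. Against this, the difference was 2.67 for *ACSL4*, 1.84 for *ACSL6* and 1.82 for *ELOVL6*, which corresponds to 6.54-fold, 3.81-fold and 3.63-fold more TPM in Rep1. Measured against the spread of genes at the same level, taken about 0, the differences of the 10 genes were 0.808 SDs (*ACSL6*) to 1.29 SDs (*ELOVL5*). That spread includes the general shift between the libraries, so it does not set differences along the shift apart from those against it. Among the 200 genes nearest to each in Rep2 level, *FADS1* stood at percentile 29.0 in Rep1, *FADS2* at 32.0 and *ELOVL5* at 26.0, whereas *ELOVL6* stood at 87.5, *ACSL6* at 89.0 and *ACSL4* at 95.5. The desaturases and *ELOVL5* thus lay within the middle range of genes of their Rep2 level, and *ACSL4* near its upper end.

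**Figure D2:**
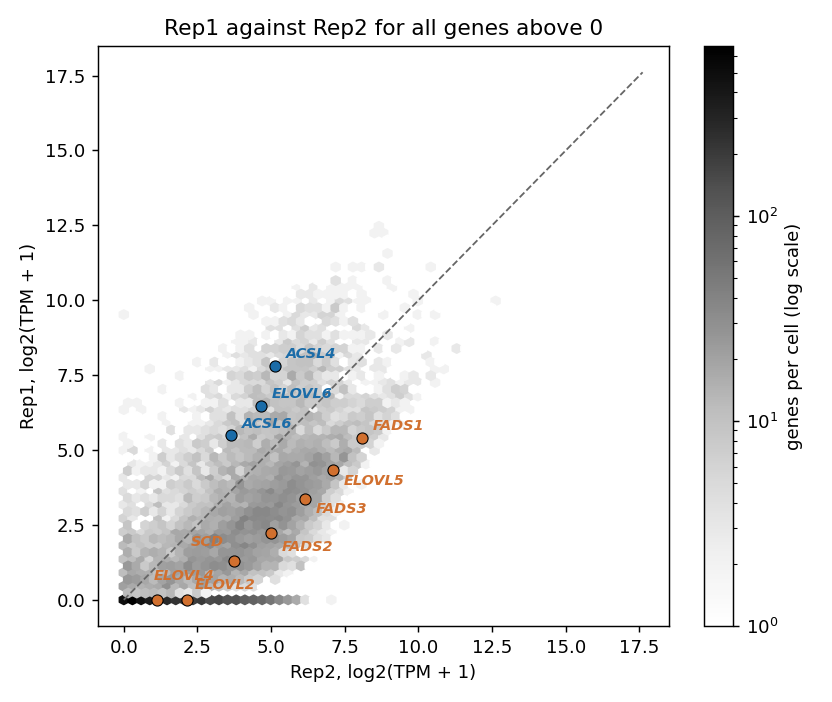
Rep1 (y axis) is plotted against Rep2 (x axis) on the log2(TPM + 1) scale, with gray cells for the number of genes, a dashed line at equal values and the 10 genes as colored points, blue where Rep1 is higher and orange where Rep2 is. *ACSL4*, *ELOVL6* and *ACSL6* lie above the dashed line and the other 7 genes below it.

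The scaling of the libraries does not touch the make-up of the 10 genes within a library. Their summed level was 432 (Rep1) and 594 TPM (Rep2). The synthetases took 62.1% of it in Rep1 and 7.72% in Rep2, and *ACSL4* alone took 51.9% and 5.77%. The desaturases took 13.0% in Rep1 and 64.4% in Rep2, with *FADS1* at 9.63% and 45.2%. The elongases took a like share in both, 24.9% in Rep1 and 27.9% in Rep2, but *ELOVL6* made up 20.5% in Rep1 and 4.11% in Rep2, whereas *ELOVL5* made up 4.40% and 23.0%.

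**Figure D3:**
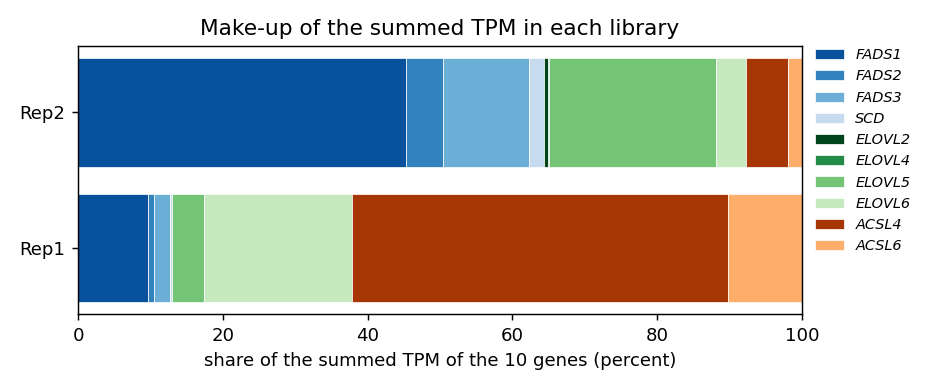
Each bar is 1 library, divided by the share of each gene (x axis, percent) in the summed TPM of the 10 genes, with desaturases in blue, elongases in green and synthetases in brown and orange. *FADS1* and *ELOVL5* fill most of the Rep2 bar, and *ACSL4* and *ELOVL6* most of the Rep1 bar.

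Of 60 other genes of the pathway, 55 were listed and 54 were detected in either library. Of these, 39 were at least 2-fold higher in Rep2 and 4 in Rep1, with a median difference of -1.94, beside 51.3% and 14.8% of all genes and a median of -1.07. The 4 higher in Rep1 were *ACLY*, *ABCD2*, *NR1H3* and *ACSL3*, and 11 of the 54 were listed at 0 in Rep1. Scaled by the median of ratios, 27 were higher in Rep2 and 10 in Rep1, where 4972 and 3485 of the 14693 genes were. Scaled to the oligodendrocyte markers the counts were 14 and 13, where 3434 and 5345 of all genes were.

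*HSD17B12*, the ketoacyl-CoA reductase of the elongation cycle, was at 11.9 (Rep1) and 179 TPM (Rep2), and *TECR*, its enoyl-CoA reductase, at 60.9 and 246 TPM. Of the 5 listed elongation partners, 3 were at least 2-fold higher in Rep2 and none in Rep1, near the 51.3% of all genes higher in Rep2. *ELOVL1*, which lengthens saturated acids for sphingolipids, was at 32.1 (Rep1) and 87.9 TPM (Rep2), while *ELOVL3* and *ELOVL7* were under 1 TPM in both. All 5 detected desaturation partners were at least 2-fold higher in Rep2, among them the electron carriers *CYB5A* (21.6 and 121 TPM) and *CYB5R3* (26.5 and 271 TPM).

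*ACSL3* was at 236 (Rep1) and 103 TPM (Rep2), above *ACSL4* by 1.05-fold in Rep1 and 2.99-fold in Rep2. *ACSL1* was at 2.69 (Rep1) and 14.7 TPM (Rep2), *ACSL5* was listed at 0 in Rep1 and at 2.10 TPM in Rep2, and *ACSS2*, which activates acetate, was at 72.9 and 41.3 TPM. Of the 6 other synthetases, 1 was at least 2-fold higher in Rep1 and 3 in Rep2, which is near the 14.8% and 51.3% of all genes.

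*De novo* synthesis supplies the substrate of *ELOVL6* and *SCD*. *ACLY*, which makes cytosolic acetyl-CoA, was at 92.2 (Rep1) and 7.66 TPM (Rep2), the widest gap toward Rep1 in this list. *FASN*, the fatty acid synthase, was at 3.51 (Rep1) and 37.3 TPM (Rep2), and *ACACA*, the acetyl-CoA carboxylase between them, at 8.97 and 9.34 TPM. In this list of 6 genes, 4 were at least 2-fold higher in Rep2 and 1 in Rep1, near the 51.3% and 14.8% of all genes.

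Remodeling enzymes place arachidonic acid in phospholipids. *LPCAT3* was at 1.23 TPM in Rep1, resting on at least 1 read, and 22.9 TPM in Rep2, whereas *MBOAT7*, which prefers phosphatidylinositol, was at 28.1 and 22.6 TPM. Of the 6 remodeling genes, 4 were at least 2-fold higher in Rep2, near the 51.3% of all genes. The peroxisomal steps that shorten the precursor of docosahexaenoic acid gave 5 of 6 genes at least 2-fold higher in Rep2, beside the same 51.3%. Among them *SCP2* was at 45.3 (Rep1) and 264 TPM (Rep2). *ABCD2*, a peroxisomal transporter, was at 8.23 (Rep1) and 0.249 TPM (Rep2).

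Markers of several cell types moved with these differences. Oligodendrocyte markers had a median difference of -2.36 (8 of 8 at least 2-fold higher in Rep2), astrocyte markers of -2.17 (7 of 8), fibroblast markers of -2.93 (7 of 7), microglia and macrophage markers of -2.61 (6 of 8) and Müller glia markers of -2.22 (3 of 4), beside 51.3% and a median of -1.07 for all genes and -2.78 to -2.43 for the desaturases and *ELOVL5*. Medians were -1.63 (6 of 8) for endothelial and pericyte markers and -1.31 (3 of 6) for pigment epithelium markers. The 3 Müller glia markers higher in Rep2 were *GLUL*, *DKK3* and *VIM*, and the paper also used vimentin to mark astrocytes. *RLBP1*, the remaining Müller glia marker, went against the median of its list, at 76.7 (Rep1) and 6.12 TPM (Rep2). In the direction of *ACSL4*, *ACSL6* and *ELOVL6*, 8 of 15 photoreceptor markers were at least 2-fold higher in Rep1 and 1 in Rep2. Their median was 1.95. For this and the following marker lists, the share of all genes at least 2-fold higher in Rep1 was 14.8%. The neuronal transcripts *SNAP25* and *SYT1* were at 1122 and 769 TPM in Rep1 against 4.99 and 11.8 TPM in Rep2. Over all 8 neuronal markers the split was 3 higher in Rep1 and 2 in Rep2. *HBB*, the beta-globin of red cells, in whose precursors *ACSL6* is also known to be expressed, was at 4515 (Rep1) and 1087 TPM (Rep2), and *ALAS2*, the heme synthesis enzyme of red-cell precursors, was at 21.9 and 9.84 TPM. Of the 6 listed erythroid markers, 2 were at least 2-fold higher in Rep1 and 1 in Rep2, and 4 were listed at 0 in Rep1. The part of these cell types in the differences was not tested.

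*SCD* and *ELOVL6* are also known from fat tissue, and the markers of that tissue ranged widely in level. *ADIPOQ* was at 0.215 (Rep1) and 0.512 TPM (Rep2), *PLIN1* was listed at 0 and at 0.386 TPM, and *LEP* was listed at 0 and at 0.151 TPM. *CIDEC*, a lipid droplet protein, was listed at 0 in Rep1 and at 6.31 TPM in Rep2. The 7 adipocyte markers summed to 24.6 (Rep1) and 235 TPM (Rep2). Most of it came from *FABP4* (8.54 and 45.6 TPM) and *LPL* (15.9 and 182 TPM), which vascular and glial cells also express. The part of fat tissue in the levels of *SCD* and *ELOVL6* was not tested.

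**Figure D4:**
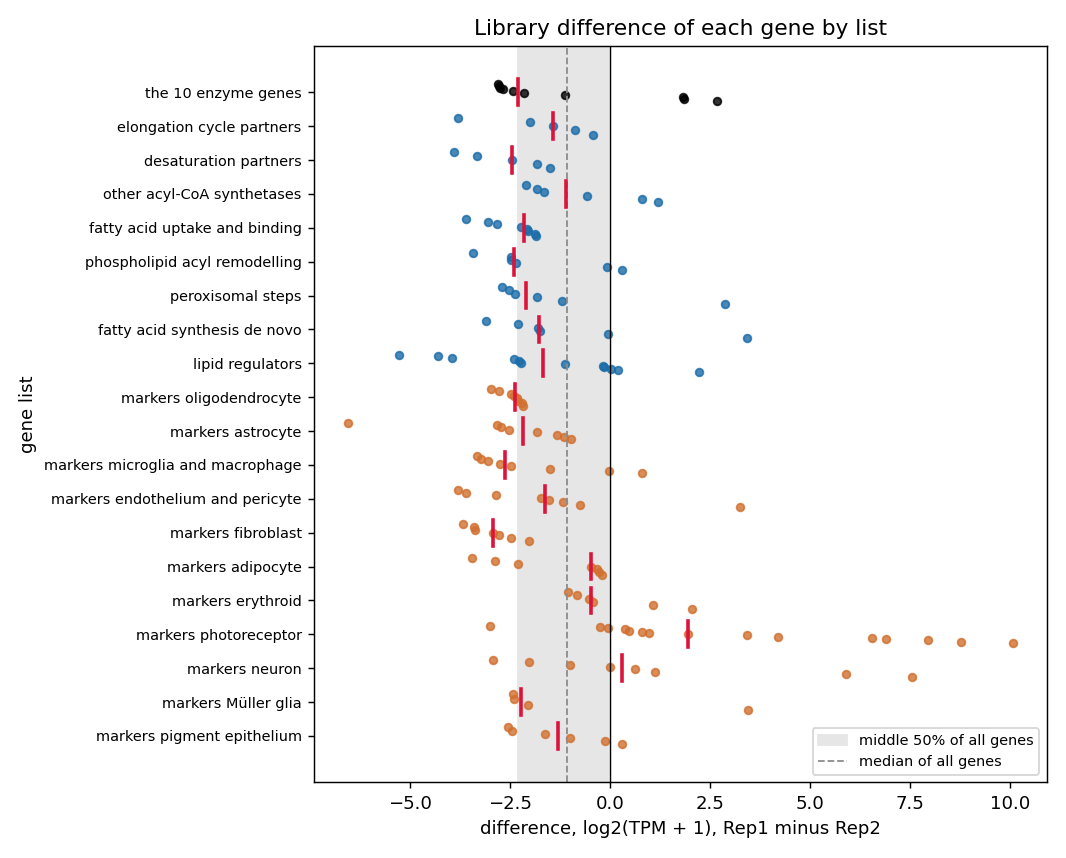
Each point is a gene, placed by its difference on the log2(TPM + 1) scale, Rep1 minus Rep2 (x axis), within its list (y axis), with the 10 enzyme genes in black, other pathway lists in blue, cell type markers in orange and a red bar at each list's median. The gray band holds the middle 50% of all genes and the dashed line their median of -1.07, and the photoreceptor list has its median at 1.95.

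The genes whose levels lay nearest to a member over both libraries were found by the distance on the log2(TPM + 1) scale, over 2 libraries. For *FADS1* they were *ATP6V0C* (42.9 and 271 TPM in Rep1 and Rep2), *ITGBL1* and *IFI6*, at distances of 0.043 to 0.061. For *ACSL4* they were *KDM5B* (217 and 33.7 TPM), *CSTF3* and *RNF103*, at 0.054 to 0.087. For *ELOVL5* they were *POLE4* (19.2 and 136 TPM), *TCF25* and *ANKRD10*, at 0.018 to 0.047. With 2 libraries many genes share such a pair of values.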

How the data were processed

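RNA of macaque optic nerve was sequenced after library preparation by the authors with a low-input kit (SMARTer v4). Per the labels and the study's methods, the authors used FastQC 0.11.9, Trim Galore 0.6.6, STAR 2.7.1a on Mmul_10 and featureCounts 1.5.3, and the deposited values are TPM that the authors computed from counts and gene lengths, so low input and amplification affect low values. Gene lengths and use of strand are not given in the sources used here. The columns Rep1 and Rep2 do not match sample titles and were used as replicates of 1 group. Levels are the mean ± SD over libraries, and differences are on the log2(TPM + 1) scale, which understates low genes. The single-library SD came from the differences, taken about 0, of the 200 genes nearest in level, so it includes the general shift between libraries. Relative depth came from ratios of values: with the constant used, whole read numbers resulted for 99.9% of 10168 genes (tolerance 1e-12), against 5.98% with a slightly different constant. Read numbers are lower bounds that can lie far below the true numbers, and TPM gives no interval per gene. Methods were tested on simulated data. Python 3.11.15, numpy 2.4.6, pandas 2.3.3 and matplotlib 3.10.9 were used. The members and lists were chosen with earlier results of these data known. The members, the pathway and marker lists, and the 3 nearest genes of the 3 highest members were named. Of the 60 pathway genes, 5 were not listed, nor were 2 erythroid markers, and *FADS6* was listed at 0 in both libraries. RefSeq transcripts were matched for all 10 members, with the curated record, or else the longest, used per gene, and the printed stretches were the same in the Mmul_10 genome. Some single genes of the lists are not reported here.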

Additional observations from a re-analysis of the deposited data

How the results depend on the processing

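No paired comparison of conditions was possible because only 1 condition was sequenced. Genes were compared within a library only by the ratios and shares given above, and the error of the order does not use that pairing. Alternatives were each library alone, a pseudocount of 0.1, TPM without the 10 most abundant genes, median-of-ratios scaling, 500 nearest genes, the SD about the mean difference, geometric means and other gene sets. Among members, at least 2-fold higher counts stayed within 1.5 times under those set at the start. Scaling Rep1 to the oligodendrocyte markers of Rep2, chosen after seeing the data, multiplies Rep1 by 5.19 and left 2 members higher in Rep2, *ELOVL2* and *ELOVL4*, and 3 in Rep1. Under it the other pathway genes gave 13 higher in Rep1 and 14 in Rep2 (all genes 5345 and 3434), and the median of all genes changed sign to 0.059, while the median of ratios gave 10 pathway genes higher in Rep1. *SCD* and *ELOVL2* became 1 pair of neighbors over 1 SD apart with the SD about the mean difference (1.12 SDs) and with a pseudocount of 0.1 (1.06 SDs). Means and shares of a single library say nothing on stability, since with 2 libraries each lies at a fixed distance in SDs from their mean. Of 60 single-library values 57 stayed within 1 SD and 3 moved, all of them percentiles. *FADS1* went from 93.0 to 83.1 (Rep1), *ACSL4* from 91.5 to 71.7 (Rep2) and *ELOVL4* from 15.5 to 19.3 (Rep2). Of 117 values of single members and of all genes under the other alternatives, 99 stayed within 1 SD, or within 1.5 times for counts. Another 17 moved and the 1 named above changed sign. *ELOVL4* has no percentile when genes averaging under 1 TPM are left out, and library differences need both libraries. Depth limits *FADS2* and *FADS3* in Rep1, and *ELOVL2* and *ELOVL4*, listed at 0 there.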

Other observations

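Of 12 regulators of these enzymes, 7 were at least 2-fold higher in Rep2 and 1 in Rep1, near the 51.3% and 14.8% of all genes. *SREBF1*, which drives transcription of desaturases and of fatty acid synthesis, was at 2.83 TPM in Rep1, resting on at least 1 read, and 73.8 TPM in Rep2. *INSIG1*, which holds its precursor in the endoplasmic reticulum, was at 3.23 (Rep1) and 64.2 TPM (Rep2), whereas *SCAP*, the escort of that precursor, was at 33.3 and 36.7 TPM. *PPARA*, a receptor for polyunsaturated fatty acids, was listed at 0 in Rep1, with 37.5 TPM in Rep2, and *NR1H3*, a sterol receptor that induces *SREBF1*, was at 11.8 (Rep1) and 1.76 TPM (Rep2).

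All 8 listed genes of fatty acid uptake and binding were at least 2-fold higher in Rep2, beside 51.3% of all genes. *DBI*, the acyl-CoA binding protein, was the highest at 45.1 (Rep1) and 189 TPM (Rep2). *FABP3*, *FABP5* and *FABP7*, which carry fatty acids in the cytosol, were at 4.50, 2.46 and 4.44 TPM in Rep1 and at 65.1, 23.4 and 19.0 TPM in Rep2. *CD36*, a fatty acid translocase, was at 4.45 and 43.6 TPM. *MFSD2A*, the carrier of docosahexaenoic acid across the blood-brain barrier, was listed at 0 in Rep1, with 3.22 TPM in Rep2.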
